A study of Rattus norvegicus with 6 samples.

Results

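TEG3 is a clonal line of rat olfactory ensheathing cells that carries the SV40 large T gene, and its expression was compared here with that of both primary cultures labelled as such cells, OEC Ep and OEC Lp. Of the defining markers of ensheathing cells, Sox10, S100b, Npy and Gfap were high in OEC Ep alone. In OEC Lp and in TEG3 they were at or near the floor to which low signals were raised here. The neurotrophin receptor gene Ngfr was also highest in OEC Ep. On the U34A array, however, Ngfr was well above this floor in OEC Lp and in TEG3. A gene was taken as differing where TEG3 lay on the same side of OEC Ep and of OEC Lp on both Affymetrix array types, U34A and RAE2.0, that is where its 4 log2 ratios had 1 sign. Of 3129 genes measured on both types, 529 were higher in TEG3 by this rule (16.9% of genes) and 431 were lower (13.8%). The rule reads the same signals as the comparison, so these counts describe the data and were not tested.

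The 3 populations were each hybridised to 1 array of each type, 6 arrays in all. OEC Ep cells had been kept for 1 week, with fewer than 3 population doublings, and OEC Lp cells had passed 50 doublings; both came from Wistar rats of 21 days after birth, with a stated purity above 90% by immunocytochemistry. TEG3 was derived from cells of Wistar donors 60 days old by transfection of the large T gene. All cells came from the olfactory nerve layer of both olfactory bulbs and were grown in DMEM with 3% fetal bovine serum, 20 µg/ml bovine pituitary extract and 2 µM forskolin. For each population 2 RNA pools of 3 cultures were made, and for OEC Ep each culture was from 1 rat. The labels do not say which pool went on which array, so the p-values may measure only how far the population differences disagree between array types. As TEG3 is 1 clone from older donors, large T, clonal origin and donor age cannot be told apart.

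Ensheathing cells are the glia that wrap olfactory axons on their way into the bulb, and they share the transcription factor Sox10, the calcium-binding protein S100b and the neurotrophin receptor Ngfr with Schwann cells. Large T binds the retinoblastoma protein and its relatives, which otherwise hold back the E2F transcription factors. E2F factors are known to drive genes of DNA synthesis at the entry into S phase, whereas many genes of mitosis are driven through CCAAT boxes and a later set of factors.

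Signals were whole-number MAS5 values, and each array had the same trimmed mean within its type. A signal under the 40th percentile of its type was set to that floor, 129 on U34A and 168 on RAE2.0, so where the low population sat at its floor the fold can only be bounded, which "at least" marks. A 3'/5' ratio of Gapdh probe sets, a sign of RNA integrity, on U34A was 1.86 for OEC Ep and 1.48 for each of OEC Lp and TEG3, and lay between 0.981 and 1.02 on RAE2.0. Log2 differences between TEG3 and the mean of the primary cultures had a median of -0.02 over all genes.

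With limma, 38 of the 3129 genes had a Benjamini-Hochberg adjusted p under 0.05 for TEG3 against the mean of OEC Ep and OEC Lp, and 29 of them also met the direction rule; these are the called genes. Of the called genes 4 rose in TEG3 (0.128% of genes tested) and 25 fell (0.799%). No gene stayed called with any 1 of the 6 arrays left out, with no floor, with no filter on dim probe sets, or without the term for array type. At least a 2-fold difference from both primary cultures on both types, a count that needs no test, was met by 25 genes upward (0.799%) and 47 downward (1.5%), and by 27 of the called genes. Of the 29 called genes 15 also passed against OEC Ep and against OEC Lp taken singly; those comparisons share the TEG3 arrays.

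**Figure D1:**
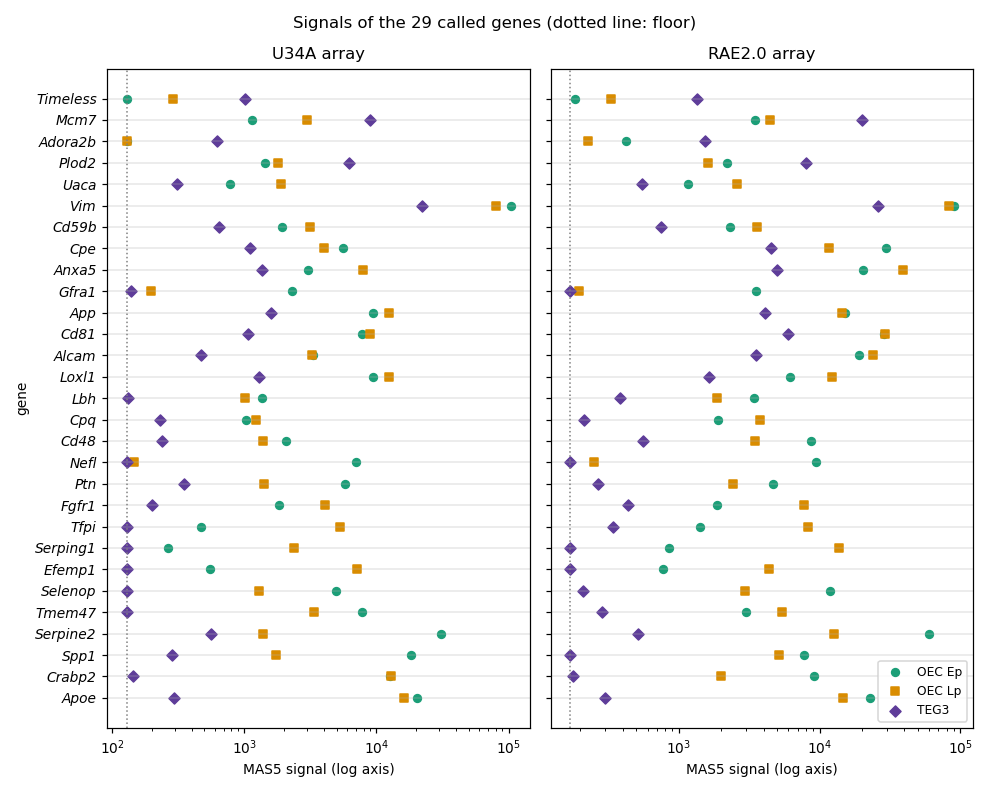
Signal (MAS5 units, log axis) of each of the 29 called genes in OEC Ep (circles), OEC Lp (squares) and TEG3 (diamonds), with 1 array per population on each type and the floor as a dotted line. TEG3 is the highest of the 3 populations in the 4 genes at the top and the lowest in the other 25, on both types.

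**Figure D2:**
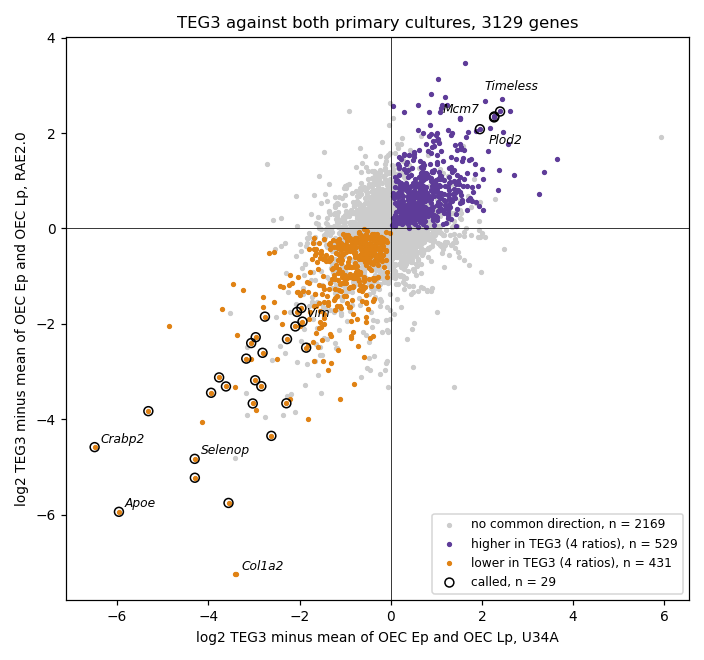
Log2 difference between TEG3 and the mean of the primary cultures on U34A (x axis) and on RAE2.0 (y axis) for 3129 genes, coloured by the direction rule, with called genes ringed. The ringed genes lie farther from 0 on the lower side, down to Apoe and Crabp2, than on the upper side, where Timeless, Mcm7 and Plod2 lie near 2.

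DNA replication had the largest share of genes with a common direction among the 27 gene lists. Of 21 listed genes on both types, 18 were higher in TEG3 by the direction rule and 0 were lower, against 16.9% and 13.8% of all genes, with a median log2 difference of 1.46 over the list. By the test, 1 of the 21 rose, Mcm7, and the other 20 did not pass; 5 of the list were called where every array had to exceed the floor, and 5 with the highest probe set per gene. Mcm7, a subunit of the helicase that unwinds DNA at the replication fork, had a U34A signal of 8948 in TEG3 against 1145 in OEC Ep and 3002 in OEC Lp, and an RAE2.0 signal of 20105 against 3478 and 4483. TEG3 lay above both primary cultures on each type, by 2.98-fold or more, and the log2 difference from their mean was 2.31 ± 0.31 (SE; 4.96-fold; limma adjusted p = 0.0435).

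The promoter of Mcm7 and that of Dtl are shown because they belong to the called replication gene and to the replication-linked gene with the largest difference on RAE2.0, and because both hold the letters of an E2F site. Each is the 250 bases before the gene start in RefSeq, build GRCr8, 5' to 3' on the gene's strand, at chr12:22163179-22163428 (minus strand) and chr13:105685922-105686171 (minus strand). Capitals mark any of TTTCCCGC, TTTCGCGC, TTTGCCGC or TTTGGCGC, or their reverse complements.
Mcm7: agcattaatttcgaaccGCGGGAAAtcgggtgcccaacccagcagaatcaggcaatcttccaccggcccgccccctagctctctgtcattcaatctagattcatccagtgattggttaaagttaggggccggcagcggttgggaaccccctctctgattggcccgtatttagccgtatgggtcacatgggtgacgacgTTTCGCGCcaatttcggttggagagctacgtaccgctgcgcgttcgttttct
Dtl: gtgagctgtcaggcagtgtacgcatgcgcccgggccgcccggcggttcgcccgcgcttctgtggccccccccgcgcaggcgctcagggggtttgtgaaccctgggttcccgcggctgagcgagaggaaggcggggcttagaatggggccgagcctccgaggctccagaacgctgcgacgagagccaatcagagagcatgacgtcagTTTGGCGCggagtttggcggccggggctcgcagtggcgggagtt

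For other listed replication genes, and for Timeless, 30 bases around a match are shown, with the match in capitals, from the same RefSeq windows; the genes were chosen after their matches were seen.
Mcm2 (chr4:122918090-122918119, minus strand): cgtgacccggtTTTCGCGCgaaaacccgtg
Mcm3 (chr9:30733734-30733763, minus strand): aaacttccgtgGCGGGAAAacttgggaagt
Mcm5 (chr19:13488794-13488823, plus strand): ccaggttggttTTTCCCGCgaaagtcggct
Mcm6 (chr13:42404473-42404502, minus strand): tggcgtctgctTTTGGCGCgaaattagcgt
Cdt1 (chr19:67529245-67529274, plus strand): ccgcgaaaattGCGCGAAAtccgcgggaag
Gins1 (chr3:160184884-160184913, plus strand): ggttaagcctaTTTGGCGCcaaagagagga
Ung (chr12:48154047-48154076, minus strand): gcgggaacagtTTTGCCGCgaaaagcccgc
Timeless (chr7:1239439-1239468, plus strand): tctgccgagtgGCGGGAAAgtctgcgaccc

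Counted from the gene start, the matches shown began at -233 and -52 in Mcm7, at -14 in Mcm2, at -6 in Mcm3 and at -8 in Mcm5. They began at -139 in Mcm6, at -25 in Gins1, at -20 in Ung and at -44 in Dtl. In Timeless the match began at the first base of the transcript, and in Cdt1 at 8, also within the transcript. Matches on the opposite strands can overlap, and a promoter was counted once. Of all 27457 RefSeq promoters of this kind (250 bases before to 50 after the start), 2.25% held such letters on either strand. The share was 46.7% for the replication list (21 of 45 genes with a promoter) and 4.26% for the mitosis list (2 of 47). It was 8.75% among the genes higher in TEG3 by the direction rule (40 of 457), 2.05% among those lower (7 of 342) and 2.43% among those with no common direction (44 of 1811). Among genes on RAE2.0 only it was 13.3% for those at least 2-fold higher in TEG3 (52 of 390), 2.7% for those at least 2-fold lower (4 of 148) and 4.28% for all 6989 with a promoter. The letters CCAAT, on either strand, were in 37.7% of all promoters, in 83.0% of the mitosis list and in 55.6% of the replication list. They were in 42.5% of the genes higher in TEG3 by the direction rule and in 39.5% of those lower. Among genes on RAE2.0 only they were in 46.4% of those at least 2-fold higher, 37.8% of those at least 2-fold lower and 37.6% of all. These shares are descriptions of letters in a window, and no test of them was made.

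Outside Mcm7, most of the listed replication genes lay above both primary cultures on each type without passing the test. Pold1, the catalytic subunit of DNA polymerase delta, read 203, 599 and 2141 on U34A and 383, 323 and 1942 on RAE2.0, in the order OEC Ep, OEC Lp, TEG3 (log2 difference 2.54, adjusted p = 0.0617). Prim1, the primase that lays down RNA primers, read 705, 2115 and 4425 on U34A and 4706, 5754 and 21431 on RAE2.0 (1.95, adjusted p = 0.068). In both genes the TEG3 array was the highest of its type. Ung, the glycosylase that removes uracil from DNA, was the first higher gene beyond the threshold, with a log2 difference of 1.88 and an adjusted p of 0.0505. Pold1, Prim1 and Ung were chosen after their values were seen.

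The sliding clamp Pcna read 7385, 13329 and 21903 on U34A and 15545, 11568 and 35544 on RAE2.0, and the helicase subunit Mcm6 read 2046, 3579 and 6367, then 1969, 1494 and 10292. Their log2 differences of 1.27 (adjusted p = 0.136) and 1.91 (adjusted p = 0.103) did not pass. Thymidylate synthase, Tyms, differed least of these, by 1.09 (adjusted p = 0.147), with 595 in OEC Lp against 652 in TEG3 on U34A. OEC Lp stood nearer to TEG3 than OEC Ep did for Pcna, Mcm6 and Tyms on U34A, but on RAE2.0 OEC Lp was the lowest population for Pcna and Mcm6.

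A further 8413 genes were measured on RAE2.0 only, with 1 array per population, so they have no replicate check and no test. At least a 2-fold difference of TEG3 from both primary cultures was met by 461 of them upward (5.48%) and 186 downward (2.21%), and any common direction by 3403 upward (40.4%) and 1943 downward (23.1%). Of 29 replication genes in this set, 28 were higher in TEG3, 23 of them by 2-fold or more, and 1 was lower. Over those 23 the median fold was 4.29 against OEC Ep and 3.91 against OEC Lp. Dtl, which directs the licensing factor Cdt1 to destruction, was no member of the list and was named for its size: it read 9610 in TEG3 against 804 in OEC Ep and 915 in OEC Lp, folds of 11.9 and 10.5. Cdt1 itself read 785, 1222 and 7034, and the helicase subunits Mcm2 (941, 1647 and 7021) and Mcm3 (935, 1212 and 6534) had a similar order. The exception was Uhrf1, which guides the maintenance of DNA methylation, at 842, 583 and 371. Cdt1, Mcm2, Mcm3 and Uhrf1 were chosen after their values were seen.

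Mitosis genes were mostly higher in TEG3 too. Of 19 on both types, 16 were higher in TEG3 by the direction rule and 0 lower, against 16.9% and 13.8% of all genes. The list had a median log2 difference of 1.05, and 0 of its genes passed the test. Cdk1, the kinase that starts mitosis, read 798, 1865 and 2540 on U34A and 6780, 3203 and 16029 on RAE2.0, in the order OEC Ep, OEC Lp, TEG3 (log2 difference 1.42, adjusted p = 0.21). Its cyclin partner Ccnb1 read 744, 2498 and 4419, then 3491, 1724 and 9987 (1.86, adjusted p = 0.165). Top2a, which untangles sister chromatids, read 624, 2304 and 3506, then 2718, 2174 and 7711 (1.61, adjusted p = 0.158). For all 3 genes OEC Lp was above OEC Ep on U34A and below it on RAE2.0, so the primary cultures had no fixed order while TEG3 was above both. Of 34 mitosis genes on RAE2.0 only, 34 were higher in TEG3, 21 of them by 2-fold or more, with a median fold over those 21 of 2.51 against OEC Ep and 3.73 against OEC Lp. The shares over all genes on that type only were 40.4% higher and 5.48% by 2-fold or more.

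**Figure D3:**
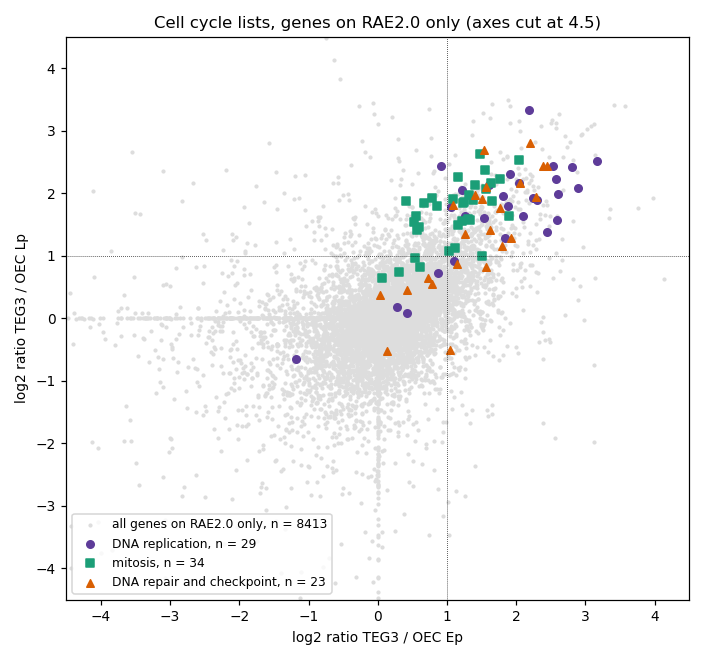
Log2 ratio of TEG3 to OEC Ep (x axis) and to OEC Lp (y axis) on RAE2.0 for genes measured on that type only, with the lists for DNA replication (29 genes), mitosis (34) and DNA repair and checkpoint (23) over all 8413 genes in grey; dotted lines mark 2-fold. Of the coloured points 23, 21 and 15 lie above 2-fold on both axes, and the 1 replication gene at the lower left is Uhrf1.

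Timeless, which keeps replication forks in step with the checkpoint kinases, was the called gene with the largest upward difference. On U34A TEG3 read 1020, against 129 (the floor) in OEC Ep and 291 in OEC Lp, and the RAE2.0 signals of OEC Ep, OEC Lp and TEG3 were 184, 331 and 1350. It rose at least 5.37-fold over the mean of the primary cultures (log2 difference 2.42 ± 0.26, SE; limma adjusted p = 0.029), and TEG3 was above both on each type. In the DNA repair and checkpoint list, 9 of 14 genes on both types were higher by the direction rule and 1 was lower, against 16.9% and 13.8% of all genes. Timeless was the 1 of the list that passed. Among the 23 on RAE2.0 only, 21 were higher and 15 by 2-fold or more, against 40.4% and 5.48% of all genes on that type only. The checkpoint kinase gene Chek1, chosen after its values were seen, read 777, 781 and 4243.

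The direct partners of large T and the G1 machinery gave a mixed picture. In the list for the retinoblastoma pathway and G1 control, 4 of 13 genes on both types were higher by the direction rule, 2 were lower and 0 passed the test. The shares over all genes on both types were 16.9% higher and 13.8% lower by that rule. The D-type cyclin Ccnd2, which activates Cdk4 in G1, read 1926, 514 and 129 on U34A and 2940, 3880 and 243 on RAE2.0, with a log2 difference bounded at -3.37, as TEG3 was at the floor on U34A (adjusted p = 0.0555). Ccnd1 read 914, 694 and 369, then 2575, 5384 and 310 (-2.35, adjusted p = 0.136). Both D-type cyclins were thus lowest in TEG3 on both types, short of the threshold. Cdk4 lay on the other side, at 1851, 5674 and 9467, then 11635, 10909 and 18397 (1.13, adjusted p = 0.236). Ccne1, the cyclin of the next step, had a log2 difference of 1.06 (adjusted p = 0.165) with no common direction, since OEC Lp read 1117 and TEG3 1061 on RAE2.0.

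Among the inhibitors of these kinases, Cdkn1b was higher in TEG3 on both types (log2 difference 0.98, adjusted p = 0.156), whereas Cdkn1a (-0.66, adjusted p = 0.253) and Cdkn2b (0.42, adjusted p = 0.672) had no common direction. Cdkn2a, one of whose products holds back Cdk4, was measured on RAE2.0 only and read 9257 in TEG3 against 528 in OEC Ep and 5948 in OEC Lp. It was thus 17.5-fold above OEC Ep and 1.56-fold above OEC Lp in TEG3. Cdkn2c read 637, 1206 and 902, with OEC Lp the highest.

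The pocket proteins and E2F factors were mostly measured on RAE2.0 only. Rb1, which large T binds, read 1115, 880 and 1650 in the same order, under 2-fold from either. Its relative Rbl1 read 1385, 761 and 4298, and E2f1, the activating E2F, read 762, 630 and 2073, so that TEG3 was 3.10 and 2.72 times OEC Ep and 5.65 and 3.29 times OEC Lp. On both types, Rbl2 (log2 difference 0.33, adjusted p = 0.611) and E2f5 (0.12, adjusted p = 0.863) had no common direction and did not pass. Of 17 genes of this list on RAE2.0 only, 15 were higher in TEG3 and 5 by 2-fold or more. The shares over all genes on that type only were 40.4% and 5.48%.

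Ccng1, the gene of cyclin G1, had a log2 difference of -0.97 and did not pass (adjusted p = 0.505). On RAE2.0 Ccng1 read 2637 in TEG3 against 15693 in OEC Ep and 2106 in OEC Lp, so its largest step lay between the primary cultures. Rrm2 gave no value here after the filters, and Tk1, the thymidine kinase, was at 856, 517 and 1779 on RAE2.0 only.

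Ribosome biogenesis and RNA processing genes, which supply cells with ribosomes and mature RNA, were higher in 14 of 21 cases and lower in 0 by the direction rule. The shares over all genes were 16.9% and 13.8%. The listed genes had a median log2 difference of 0.56, with 0 past the test. The largest of them by this difference was Nop58, a core protein of the small nucleolar particles that modify ribosomal RNA, at 1022, 1681 and 3886 on U34A and 5315, 10089 and 19386 on RAE2.0 (1.49, adjusted p = 0.0678; chosen after its values were seen). On RAE2.0 only, 20 of 26 were higher and 1 by 2-fold or more, against 40.4% and 5.48% of all genes on that type only. With no TEG3 array of U34A the rule gave 18 higher and 1 lower, and with none of RAE2.0 16 higher and 2 lower.

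**Figure D4:**
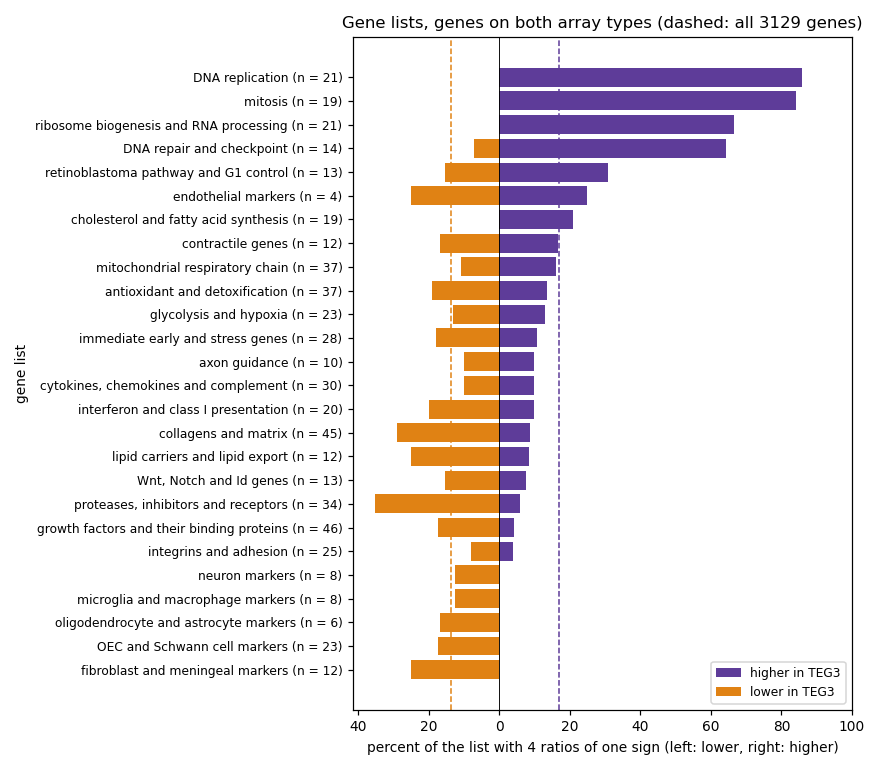
Percent of each gene list, over its genes measured on both array types, with 4 ratios above 0 (right) or 4 below 0 (left); dashed lines give the shares for all 3129 genes, 16.9% and 13.8%. DNA replication, mitosis, ribosome biogenesis and DNA repair reach farthest to the right, and proteases with their inhibitors, and matrix genes, reach farthest to the left.

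The other 2 called genes that rose were Plod2 and Adora2b. Plod2, the lysyl hydroxylase that prepares collagen for crosslinking, read 1426, 1804 and 6210 on U34A and 2205, 1604 and 7958 on RAE2.0 in the same order, a log2 difference of 2.02 ± 0.29 (SE; 4.05-fold; limma adjusted p = 0.0488). Adora2b, an adenosine receptor, was at the floor of 129 in both primary cultures and at 620 in TEG3 on U34A, and read 419, 225 and 1542 on RAE2.0; it rose at least 4.91-fold (2.30 ± 0.30, SE; adjusted p = 0.0423). In both genes the primary cultures lay within 2-fold of each other and TEG3 stood above them on each type. For Adora2b on U34A, however, the primary cultures were equal only through the floor. On that type Adora2b passed the filter on dim probe sets through TEG3 alone, so its direction there was fixed by the filter.

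Hox genes, which set position along the body axis and are best known from trunk and hindbrain tissue, held 3 of the 8 largest upward folds among the genes on RAE2.0 only. Hoxa9 and Hoxa10, with Hoxd8, were at the floor in both primary cultures and read 1788, 1460 and 1369 in TEG3, at least 10.6-fold above either culture for Hoxa9. As deposited, the single probe set of Hoxa9 held 6 in OEC Ep and 19 in OEC Lp, and that of Hoxa10 held 44 and 137. Of 18 Hox genes on this type, a set chosen after its values were seen, 13 were at the floor in both primary cultures; these passed the filter on dim probe sets through TEG3 alone, so their direction was fixed by it. Of the other 5, Hoxb3, Hoxb6, Hoxc4 and Hoxd9 were higher in TEG3 than in both primary cultures and Hoxd11 was not. TEG3 signals of the 18 ran from the floor of 168 to 1788, with a median of 406. Hoxa5, on both types, read 129, 129 and 159 on U34A and 168, 201 and 993 on RAE2.0 and did not pass (1.37, limma adjusted p = 0.225). On U34A Hoxa5 also passed the filter on dim probe sets through TEG3 alone, so its direction there was fixed by the filter. Hoxd11 was the 1 Hox gene at the floor in TEG3. Meis1, also chosen after its values were seen, read 608, 565 and 2689 on RAE2.0.

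Other genes with the largest upward folds on RAE2.0 were at or near the floor in both primary cultures. Any of them at the floor in both passed the filter on dim probe sets through TEG3 alone, so its direction was fixed by the filter. Ano5 read 1417 in TEG3, the desmosome protein gene Dsp 1297, Rpp25, a subunit of the ribonuclease that trims transfer RNA, 1283, and the tight-junction adhesion gene F11r 1185. Each was at least 6.85-fold above either culture.

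**Figure D5:**
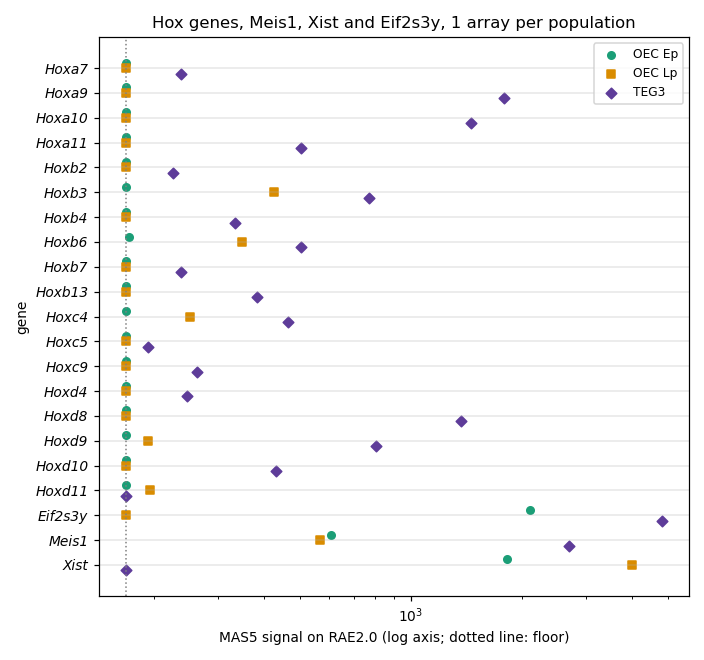
Signal on RAE2.0 (MAS5 units, log axis) of 18 Hox genes, of Meis1, which encodes a partner of Hox proteins, of Xist and of the Y-linked Eif2s3y in OEC Ep, OEC Lp and TEG3, 1 array each, with the floor as a dotted line. The 13 Hox genes at the floor in both primary cultures passed the filter through TEG3 alone, and TEG3 is at the floor for Xist.

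Sex-linked transcripts also differed. Xist, the RNA that coats the silent X chromosome of female cells, was at the floor of 168 in TEG3 on RAE2.0, against 1828 in OEC Ep and 4002 in OEC Lp. All 4 of its probe sets were low in TEG3 as deposited, at 28, 104, 2 and 21. The Y-linked Eif2s3y read 4828 in TEG3 against 2115 in OEC Ep and 168 in OEC Lp. OEC Ep thus had signal for both, OEC Lp for Xist alone and TEG3 for Eif2s3y alone. Donor sex is not given in the labels, and its part in the other results was not tested.

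Apoe, the lipid carrier that glia secrete, fell farthest in TEG3 of all called genes. On U34A it read 292 in TEG3 against 20258 in OEC Ep and 16310 in OEC Lp, and on RAE2.0 299 against 22929 and 14669. TEG3 was at least 49.1-fold below each primary culture on each type, and at least 61.8-fold below their mean (log2 difference -5.95 ± 0.26, SE; limma adjusted p = 0.00271, the smallest of all called genes). On U34A both probe sets of Apoe were lower, from 37707 and 26599 to 663 and from 10884 and 9998 to 58 as deposited. With no filter on dim probe sets, where an RAE2.0 probe set of 26, 11 and 9 enters, the Apoe log2 difference was -4.46.

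Crabp2, which carries retinoic acid into the nucleus, read 12778, 12949 and 143 on U34A and 9093, 1980 and 177 on RAE2.0, and fell 46.4-fold (-5.54 ± 0.62, SE; adjusted p = 0.0294). Selenop, the secreted selenium carrier, read 4982, 1290 and 129, then 11909, 2965 and 209, and fell at least 23.6-fold (-4.56 ± 0.28, SE; adjusted p = 0.00842) in the probe sets kept. The Selenop log2 difference was -2.37 with the floor at the 20th percentile and -2.28 with no filter on dim probe sets, so the bound depends on which probe sets enter. The Crabp2 log2 difference was -4.58 without the U34A array of TEG3 and -6.49 without its RAE2.0 array, and -4.88 and -6.19 without those of OEC Lp. For both genes TEG3 was far below both primary cultures on each type; OEC Lp was also below OEC Ep for Selenop on both types and for Crabp2 on RAE2.0. In the list of lipid carriers and lipid export, 2 of 12 genes fell, Apoe and Crabp2, 0 rose and 10 did not pass. The shares over all genes were 0.799% and 0.128%. In this list 1 gene was higher and 3 lower by the direction rule, against 16.9% and 13.8% of all genes. Cholesterol and fatty acid synthesis had 4 of 19 genes higher and 0 lower by that rule, with 0 past the test.

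In bulk RNA a smaller number of cells of 1 kind and less RNA per cell cannot be told apart, and macrophages also make Apoe and Spp1. For the macrophage markers, the summed signals over 8 genes on U34A were 28049, 1487 and 1562 for OEC Ep, OEC Lp and TEG3, and over 18 genes on RAE2.0 72214, 5939 and 3957, with 0, 14 and 14 of the 18 at the floor. Both OEC Lp and TEG3 were thus low for the list; in OEC Lp Apoe read 16310 and 14669 on the 2 types, and Spp1 1727 and 5127 against 18217 and 7698 in OEC Ep. The part of macrophages in these values was not tested. Of 8 macrophage genes on both types 1 was lower in TEG3 by the direction rule, against 13.8% of all genes, and 0 passed.

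Several genes of the extracellular matrix fell. Of 45 collagen and matrix genes on both types 3 fell, 1 rose and 41 did not pass, against 0.799% and 0.128% of all genes. By the direction rule 13 were lower and 4 higher, against 13.8% and 16.9% of all genes. The median log2 difference of the list was -0.80. Spp1, the secreted phosphoprotein osteopontin, read 18217, 1727 and 286 on U34A and 7698, 5127 and 168 on RAE2.0, and fell at least 27.1-fold (-4.76; limma adjusted p = 0.041). Efemp1, a fibulin of elastic fibres, read 549, 7124 and 129, then 767, 4358 and 168, and fell at least 12.9-fold (-3.69; adjusted p = 0.0221). Loxl1, which crosslinks elastin, read 9450, 12429 and 1301, then 6177, 12263 and 1647, and fell 6.63-fold (-2.73; adjusted p = 0.0294). OEC Lp was between OEC Ep and TEG3 for Spp1 but above OEC Ep for Efemp1 and Loxl1. The Spp1 log2 difference was -5.40 without the U34A array of OEC Lp and -4.12 without its RAE2.0 array, and the Efemp1 log2 difference, with TEG3 at the floor on both types, was -7.80 with no floor. The 1 that rose was Plod2.

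The collagen chain gene Col1a2, chosen after its values were seen, read 20610, 21071 and 1969 on U34A and 18049, 36033 and 168 on RAE2.0, but its log2 difference, a bound of -5.33 since TEG3 was at the floor on RAE2.0, did not pass (adjusted p = 0.0609). Of 30 matrix genes on RAE2.0 only, 6 were lower by 2-fold or more and 2 higher, against 2.21% and 5.48% of all genes on that type only. The laminin chain gene Lama2 read 3643, 1670 and 168, and the extracellular matrix gene Olfml2a 1412, 1578 and 168. Fibroblast markers summed to 109411, 87819 and 55912 on U34A over 12 genes and to 174996, 161457 and 55038 on RAE2.0 over 19. Over all genes 13.8% were lower in TEG3 by the direction rule, as were 3 of the 12 fibroblast markers on both types, with 0 past the test. Their part in the matrix values was not tested.

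In the list of proteases, inhibitors and receptors 3 of 34 genes fell, all of them inhibitors, 0 rose and 31 did not pass. Over all genes 0.799% fell and 0.128% rose. By the direction rule 12 of the list were lower and 2 higher, against 13.8% and 16.9% of all genes (median log2 difference of the list -0.90). Serpine2, the inhibitor of thrombin and plasminogen activators also called protease nexin, read 31014, 1394 and 559 on U34A and 59590, 12698 and 510 on RAE2.0, and fell 25.2-fold (-4.66; limma adjusted p = 0.0481). Tfpi, which blocks the start of coagulation, read 471, 5279 and 129, then 1406, 8253 and 343 (a bound of -3.46 on the log2 scale; adjusted p = 0.0221). Serping1, the inhibitor of the first complement component, read 265, 2363 and 129, then 854, 13697 and 168 (at least 11.2-fold; -3.48; adjusted p = 0.0435). In OEC Lp Serpine2 was far below OEC Ep, and Tfpi and Serping1 were above it, so these genes share their low point in TEG3 but not an order of the primary cultures. With the U34A array of TEG3 left out and then its RAE2.0 array, the Serpine2 log2 difference was -5.75 and -3.56 and the Serping1 log2 difference -4.35 and -2.62; without those of OEC Lp the Serpine2 value was -5.35 and -3.96. The tissue factor gene F3, which Tfpi opposes, had the other direction without passing, at 172, 129 and 1871, then 1120, 1446 and 3497 (2.56, adjusted p = 0.093; chosen after its values were seen).

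Growth factors and their receptors held 3 genes that fell among 46, 0 that rose and 43 that did not pass, against 0.799% and 0.128% of all genes. By the direction rule 8 were lower and 2 higher, against 13.8% and 16.9% of all genes. The list had a median log2 difference of -0.12. Fgfr1, a receptor for fibroblast growth factors, read 1841, 4086 and 202 on U34A and 1861, 7771 and 437 on RAE2.0, and fell 10.9-fold (-3.44 ± 0.33, SE; limma adjusted p = 0.0221). The Fgfr1 log2 difference was -2.79 under quantile normalization, -2.52 with the floor at the 20th percentile and -2.81 with no filter on dim probe sets. Ptn, the heparin-binding growth factor pleiotrophin, read 5790, 1402 and 350, then 4673, 2447 and 266, and fell 10.2-fold (-3.35; adjusted p = 0.0283). Gfra1, the receptor for the glial factor GDNF, read 2282, 197 and 139, then 3564, 197 and 168, so it was near the floor in OEC Lp as well. Gfra1 was called against the mean (-2.30, adjusted p = 0.0348) and against OEC Ep (adjusted p = 0.00495) but not against OEC Lp (adjusted p = 0.661).

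Nefl, the light neurofilament chain, had the same pattern, at 6981, 147 and 129 on U34A and 9367, 248 and 168 on RAE2.0 (-3.08, limma adjusted p = 0.0221; against OEC Lp 0.635). With OEC Lp near the floor and TEG3 at it for Nefl on both types and for Gfra1 on RAE2.0, their distance from OEC Lp can only be bounded; with no floor the Nefl log2 difference from the mean was -4.48. Nefl was the 1 of 8 neuron markers on both types that fell, against 0.799% of all genes. Of these markers 0 rose, and 7 did not pass. A further 9 genes passed the test without meeting the direction rule and so were not called: Postn, Calcb, Nefm, Lyz2, Reln, Entpd2, Aard, Fez1 and Calca. Postn, a matrix protein, read 14838, 129 and 129 on U34A and 56582, 394 and 168 on RAE2.0.

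Cell surface proteins were among the called genes whose primary cultures lay closest to each other. Alcam, an adhesion molecule of growing axons and glia, read 3331, 3274 and 471 on U34A and 19060, 24120 and 3521 on RAE2.0, and fell 6.54-fold (-2.71 ± 0.26, SE; limma adjusted p = 0.0221). Cd81, a tetraspanin, read 7774, 8984 and 1074, then 28737, 29220 and 5972 (6.14-fold; -2.62; adjusted p = 0.0294). App, the precursor of amyloid beta, read 9392, 12456 and 1599, then 15090, 14438 and 4099 (4.93-fold; -2.30; adjusted p = 0.0481). All 3 of the Alcam probe sets on U34A and all 3 of the App probe sets on RAE2.0 were lowest in TEG3. The membrane protein gene Tmem47 read 7787, 3377 and 129, then 3025, 5381 and 284 (at least 23.8-fold; -4.57; adjusted p = 0.0345). Without the U34A array of TEG3 the Tmem47 log2 difference was -3.83, and without its RAE2.0 array -5.31. Cd48, a ligand on blood cells, read 2085, 1386 and 238, then 8681, 3453 and 553 (-3.07, adjusted p = 0.0221), and Cd59b, which blocks complement attack, read 1934, 3172 and 648, then 2321, 3568 and 743 (-1.94, adjusted p = 0.0421). TEG3 was the lowest population on both types in each of these genes. In the list of integrins and adhesion Alcam was the 1 of 25 that fell, 0 rose and 24 did not pass. Over all genes 0.799% fell and 0.128% rose. By the direction rule 1 of the list was higher and 2 lower, against 16.9% and 13.8% of all genes.

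Vim, the intermediate filament of glia and mesenchyme, read 104624, 80300 and 22057 on U34A and 90618, 83847 and 25941 on RAE2.0. It fell 3.74-fold (-1.90 ± 0.26, SE; limma adjusted p = 0.0456), with TEG3 below both primary cultures on each type. Anxa5, which binds phosphatidylserine, read 3016, 7921 and 1352, then 20446, 39365 and 5023 (-2.18, adjusted p = 0.0435). Cpe, the carboxypeptidase of peptide hormone processing, read 5590, 4012 and 1112, then 29685, 11736 and 4498 (-2.07, adjusted p = 0.0481). The peptidase gene Cpq (-2.98, adjusted p = 0.0435), Lbh (-2.95, adjusted p = 0.0221) and Uaca (-1.81, adjusted p = 0.0481) complete the 25 called genes that fell; the Cpq log2 difference was -3.66 without the U34A array of TEG3 and -2.29 without its RAE2.0 array. Among these 25, OEC Lp was below OEC Ep on both types for 11 and above it on both types for 10. Just inside the threshold lay App (adjusted p = 0.0481) and Plod2 (0.0488), and just outside it Ung (0.0505) and Cd24 (0.0525), a surface glycoprotein gene whose log2 difference was bounded at -2.13.

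Defining markers of ensheathing cells set OEC Ep apart from both other populations. Sox10 read 2904, 129 and 201 on U34A and 5743, 168 and 233 on RAE2.0, and S100b 6119, 129 and 132, then 40365, 168 and 168. Npy, a peptide of these cells, read 2519, 129 and 243, then 4514, 174 and 168, and the filament gene Gfap, on RAE2.0 only, 3236, 168 and 168. These markers were at or near the floor in OEC Lp as in TEG3, met no common direction and were not called (Sox10 -1.84, adjusted p = 0.0567). Ngfr differed between the types, at 12716, 2569 and 3621 on U34A and 12522, 168 and 168 on RAE2.0. Gap43, the growth cone protein, was lowest in TEG3 on both types, at 1574, 803 and 242, then 483, 374 and 216 (-1.60, adjusted p = 0.109).

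Over the marker list of ensheathing and Schwann cells, 3 of 23 genes on both types fell (Apoe, Gfra1 and Vim), 0 rose and 20 did not pass. The shares over all genes were 0.799% and 0.128%. Of the list 4 were lower and 0 higher by the direction rule, against 13.8% and 16.9% of all genes. Summed over the list, U34A gave 179352 for OEC Ep, 108186 for OEC Lp and 31936 for the line, and RAE2.0 gave 338147, 108667 and 45107. Most of the OEC Lp sum on each type was Vim and Apoe. At the floor were 1, 5 and 4 of the 23 genes on U34A, in the order OEC Ep, OEC Lp, TEG3. On RAE2.0 they were 1, 15 and 15 of 29. The 3 that fell are not confined to these cells: Apoe and Vim are made by many glia and mesenchymal cells.

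Contractile genes had 2 of 12 higher and 2 lower by the direction rule, endothelial markers 1 and 1 of 4, and markers of oligodendrocytes and astrocytes 0 and 1 of 6, with 0 past the test in each. Interferon genes had 2 of 20 higher and 4 lower, cytokines with complement 3 and 3 of 30, glycolysis 3 and 3 of 23, and the respiratory chain 6 and 4 of 37. Antioxidant genes had 5 of 37 higher and 7 lower, immediate early genes 3 and 5 of 28, axon guidance 1 and 1 of 10, and Wnt, Notch and Id genes 1 and 2 of 13. By the same rule 16.9% of all genes were higher and 13.8% lower. No gene of these 11 lists was called.

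Among genes on RAE2.0 only, Flrt3, an adhesion and guidance protein gene, had one of the largest downward folds against both primary cultures, at 4777, 4032 and 298. Etl4 read 2403, 2188 and 168, the sulfatase gene Arsi 2758, 1602 and 168, and Ifitm1, an interferon-induced membrane protein gene, 1440, 6610 and 180. In Flrt3 TEG3 was 16.0-fold below OEC Ep and 13.5-fold below OEC Lp. In Etl4, Arsi, Lama2, Olfml2a and Xist TEG3 was at the floor. These values rest on 1 array per population and have no replicate check.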

How the data were processed

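The deposited tables hold MAS5 signal intensity values on a linear scale, as whole numbers, which the authors obtained with Affymetrix Microarray Suite 5.0, per the labels; the design text names U34A arrays alone. Detection calls were not used here. Each array was scaled to the 2% trimmed mean of its type, 59 and 57 control probe sets were dropped, and a probe set was kept if it exceeded the floor on at least 1 of 3 arrays, as did 6353 of 8799 on U34A and 22185 of 31099 on RAE2.0. Probe sets with a single symbol (7018 and 20832; 308 and 436 had several, 1473 and 9831 none) were averaged per gene on the log2 scale, which gave 3722 and 11542 genes. Symbols were updated through the RefSeq table of GRCr8 by gene identifier. The number of arrays, 2 per population, limits the precision.

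Genes on both types were fitted in limma 3.58.1 (R 4.3.3) with terms for population and array type, over all 3 populations, with 2 residual and 3.64 prior degrees of freedom. Array type is the replicate number, so it serves as the replicate block; the types carry different probes, which is why it belongs in the fit. The limma fit and its threshold were tried on simulated data for TEG3 against the mean of the primary cultures. Each of 20 runs held 3129 genes, with 200 of them changed. Genes changed 2-fold were called in 9.6% of cases, 4-fold in 60.9%, 8-fold in 78.7% and 16-fold in 87.9%. Unchanged genes made up 4.28% of what was called. As every gene entered the fit in each run, these rates do not cover the filter on dim probe sets. Nor are they a check on the floor or on genes that differ between OEC Ep and OEC Lp. They therefore give no error rate for the called genes. Named genes were the 15 largest called in each direction, up to 4 called per list, the 8 genes on RAE2.0 only with the largest smaller fold in each direction, the 6 called with the closest primary cultures, and a fixed set of cell cycle and marker genes; other names are given as chosen after their values were seen, and some genes and 1 list are not reported here. The members and lists were chosen with earlier results of these data known. Promoters came from RefSeq, the first listed per symbol, for 2610 of the 3129 genes. Alternatives covered the floor, the dim filter, scaling, the choice of probe set, the block, the variance trend and each array left out.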

Additional observations from a re-analysis of the deposited data

How the results depend on the processing

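The count of 29 called genes was 0 with no floor, 8 with the floor at the 20th percentile, 0 with no filter on dim probe sets, 44 where every array had to exceed the floor, 60 with the highest probe set per gene, and 0 without the replicate block. Against OEC Ep the 141 genes became 11, 102, 1, 86, 164 and 0 under these settings in turn, and against OEC Lp the 41 became 0, 4, 0, 40, 57 and 0; with only the 4 arrays of the populations compared, both counts were 0. With each array left out in turn, by limma with the lone array taken to vary like the others, all 3 counts ranged from 0 to 0. Unadjusted p under 0.05 was met by 526 genes with no floor, 578 with no dim filter, 127 without the block and 340 to 523 with an array left out, against 632. The 4 called genes that rose became 0, 1, 0, 11, 12 and 0 under the first 6 settings, 6 with quantile normalization and 6 with a variance trend, and 0 to 0 with an array left out; the 25 that fell became 0, 7, 0, 33, 48 and 0, and 0 to 0. The 38 genes called with a variance trend and the 30 with quantile normalization were near the 29.

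By direction, 529 higher genes became 611 to 1064 and 431 lower genes 564 to 990 with an array left out, since fewer ratios had to concur. Genes 2-fold higher, 25, became 40 with no floor, 43 with the lower floor, 16 where every array had to exceed it and 32 to 137 with an array left out; those 2-fold lower, 47, became 91, 79, 32 and 60 to 157. On RAE2.0 only, 461 higher and 186 lower genes became 588 and 547 with no floor and 619 and 386 with the lower floor. The replication genes higher in TEG3 numbered 16 to 21 and the mitosis genes 12 to 19 over all settings. Among the named genes the sign turned for the E2f5 log2 difference (-0.092 to 0.335 with an array left out; below 0 without the U34A array of OEC Ep or of TEG3), the Cdkn2b log2 difference (-0.027 to 0.858; below 0 without the U34A array of OEC Lp) and the Rbl2 log2 difference (-0.079 to 0.738; below 0 without the RAE2.0 array of TEG3); the cause was not tested.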
